A study of Mus musculus with 36 samples.

Results

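The comparison was between ages within wild-type mice: brain RNA of wild-type C57BL/6 mice at 9 months of age was set against that at 6 months. It used the mRNA table of the long RNA libraries, and its members were the 3 wild-type libraries of 9 months (WT 1, WT 2 and WT 3) and the 3 of 6 months, chosen by their labels alone. These are 6 of the 12 long RNA libraries and 6 of the 36 samples of the series. The other 6 long RNA libraries came from APP/PS1 mice of the same strain and ages, which express the APP695swe and PS1-dE9 mutations, and they enter below only to share the estimate of the spread and where the effect of age was tested between genotypes. The remaining samples are circRNA and miRNA libraries of the same 4 groups and were not analysed here. The wild-type mice of both ages carry neither mutation, and no treatment is named. The labels do not state sex, the part of the brain taken, or whether each library is a different animal, so the p-values measure the spread between libraries, which may be technical.

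Both ages are those of adult mice, before the age at which mice are usually called old. RNA from a whole brain sample mixes neurons of many regions, glia, vessels and the lining of the ventricles. Some of its genes answer to the last minutes or hours of an animal's life rather than to its age: immediate early genes are transcribed within minutes of neuronal firing, and clock genes follow the time of day. Other genes report anatomy, such as the choroid plexus, a small epithelial tissue in the ventricles that makes cerebrospinal fluid, or the striatum, whose projection neurons answer to dopamine. In bulk RNA, fewer cells of a type and less RNA per cell cannot be told apart.

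Values are FPKM, fragments scaled to transcript length and library size, summed over the transcripts of a gene, so that levels can be compared between genes. The FPKM of all genes summed to 292540 to 301023 in the 6 wild-type libraries, and 16786 to 17004 genes were above 0. The tissue label reads brain, whereas the extraction protocol speaks of retinas. Snap25, a protein of neuronal synapses, lay between 785 and 871 FPKM in the 6 libraries. Photoreceptor genes stood near 0. Crx, a factor of photoreceptor development, was above 0 in 1 wild-type library, WT 2 of 9 months (0.0576 FPKM). Of 12 photoreceptor genes, 1 passed the filter on low values, Sag (arrestin, 0.566 ± 0.134 FPKM at 9 months and 0.648 ± 0.0468 FPKM at 6 months). Between any pair of wild-type libraries the log2 values of the tested genes had a Pearson r of 0.981 to 0.989 across genes, which are not independent replicates, and 0 pairs held identical values. Some libraries of 6 months stood apart in tissue markers: WT 1 and WT 3 were low in choroid plexus genes, and WT 1 was low in thalamic genes.

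Few genes passed the test for age. The test covered 13593 genes whose FPKM over the 12 libraries averaged 0.5 or more. Of these, 6 (0.0441%) were called at a Benjamini-Hochberg (BH) adjusted p under 0.05 in limma, 3 higher (0.0221%) and 3 lower (0.0221%) at 9 months. The genes that rose were Pglyrp1, a secreted protein that binds bacterial peptidoglycan, Cfap54, a protein of motile cilia, and Gapdh, the glycolytic dehydrogenase. The genes that fell were Hdac1, a histone deacetylase, Art3, of the family of arginine-specific ADP-ribosyltransferases, and the pseudogene Gm5900. An unadjusted p under 0.05 was found for 1394 genes (10.3%). The 3 libraries of 9 months lay wholly above or wholly below the 3 of 6 months in 2408 genes (17.7%), 1162 of them higher (8.55%) and 1246 lower (9.17%). Log2 changes were taken on log2(FPKM + 0.25), a scale that makes changes of weakly expressed genes look smaller. Over all genes tested their median was −0.0035, 48.6% were above 0, and the 5th and 95th percentiles were −0.26 and 0.26.

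**Figure D1:**
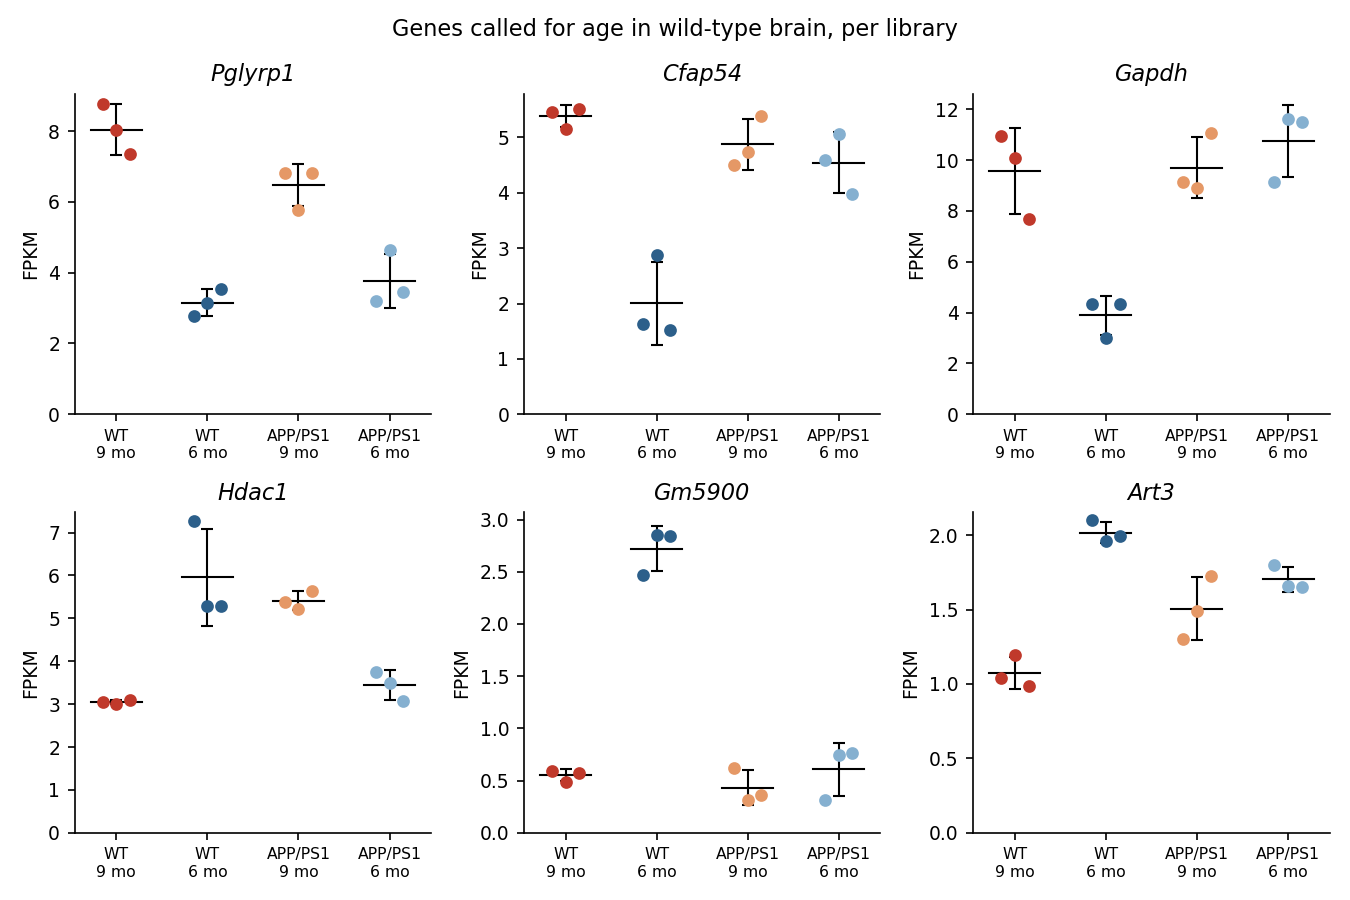
FPKM (y axis, linear from 0) of the 6 genes called for age in wild type, in each library (points), with the mean and SD of 3 libraries (bars). Wild-type libraries of 9 and 6 months are on the left and APP/PS1 libraries on the right of each panel. In all 6 genes the wild-type libraries of 9 months stand apart from those of 6 months, and for Hdac1 the APP/PS1 libraries lie in the opposite order.

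Pglyrp1 had the smallest p. This gene (ENSMUSG00000030413), with a single listed transcript, had 8.76, 8.02 and 7.34 FPKM at 9 months, against 2.77, 3.15 and 3.53 FPKM at 6 months. All libraries of 9 months lay above all of 6 months, and the gap between the groups was wider than the range within either. Pglyrp1 averaged 8.04 ± 0.710 FPKM at 9 months and 3.15 ± 0.380 FPKM at 6 months (SD, n = 3 each), a log2 change of 1.29 (SE 0.13, limma BH-adjusted p = 0.0133). In APP/PS1 libraries it had 6.81, 5.78 and 6.81 FPKM at 9 months and 3.21, 4.63 and 3.46 FPKM at 6 months, also without overlap. Its call was lost without WT 1 of 9 months (limma BH-adjusted p = 0.0790) or WT 2 of 9 months (0.0605) and held without each of the other 4 wild-type libraries, with a log2 change of 1.21 to 1.37.

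Cfap54 (ENSMUSG00000020014), a component of the central apparatus of cilia, had 5.47, 5.16 and 5.52 FPKM at 9 months, against 1.62, 2.87 and 1.52 FPKM at 6 months. All libraries of 9 months were close together, and WT 2 of 6 months stood above the other libraries of that age. The log2 change was 1.37 (SE 0.18, limma BH-adjusted p = 0.0303). The difference was carried by the transcripts ENSMUST00000168110 and ENSMUST00000164979 of 4 listed. WT 2 was also the library of 6 months with by far the most choroid plexus RNA, described below, and without it the limma BH-adjusted p was 0.000411, while without any other wild-type library it ran from 0.0623 to 0.137.

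Gapdh (ENSMUSG00000057666) had 10.96, 10.1 and 7.67 FPKM at 9 months, against 4.32, 3.01 and 4.33 FPKM at 6 months. The groups did not overlap, and WT 3 was the lowest library of 9 months. The log2 change was 1.25 (SE 0.17, limma BH-adjusted p = 0.0303). The table lists 6 Gapdh transcripts, and ENSMUST00000117757 alone held 9.44 of the mean 9.58 FPKM at 9 months and 3.53 of 3.89 at 6 months, while ENSMUST00000073605 was listed at 0 in all 12 libraries. The genome holds many near-identical copies of Gapdh that can take its reads, so this value is uncertain.

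Hdac1 (ENSMUSG00000028800) had 3.04, 3.01 and 3.09 FPKM at 9 months, against 7.27, 5.29 and 5.299 FPKM at 6 months. All libraries of 9 months were close together, and WT 1 was the highest at 6 months. The log2 change was −0.90 (SE 0.11, limma BH-adjusted p = 0.0303). The reference gene table lists Gm10093 as Hdac1-ps, a pseudogene copy, and it had 2.93, 3.28 and 3.605 FPKM at 9 months, against 0.643, 2.02 and 1.89 FPKM at 6 months, the opposite order. The sum of Hdac1 and Gm10093 averaged 6.32 ± 0.363 FPKM at 9 months and 7.47 ± 0.385 FPKM at 6 months (SD, n = 3 each). Reads of the copies can be divided either way by the counting, so the value for Hdac1 is uncertain.

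Gm5900 (ENSMUSG00000094685), which the reference table lists as a pseudogene, had 0.594, 0.485 and 0.574 FPKM at 9 months, against 2.47, 2.85 and 2.84 FPKM at 6 months. The groups lay far apart, with a log2 change of −1.89 (SE 0.23, limma BH-adjusted p = 0.0303). A pseudogene can share reads with its parent gene, so this value too is uncertain. Art3 (ENSMUSG00000034842) had 1.04, 1.19 and 0.989 FPKM at 9 months, against 2.100, 1.96 and 1.99 FPKM at 6 months. Libraries of each age lay close together, and the log2 change was −0.78 (SE 0.11, limma BH-adjusted p = 0.0307). The Art3 reads were spread over 17 listed transcripts, of which 12 were above 0 in some library, and with only the highest transcript per gene the log2 change was −0.36 (limma BH-adjusted p = 0.532).

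Most of these calls were lost on leaving out 1 library, while the log2 changes stayed close to those with all libraries. Without 1 wild-type library at a time, Art3 and Gm5900 were called in 0 of 6 fits (limma BH-adjusted p up to 0.137 and 0.111), Cfap54 and Gapdh in 1 of 6, Hdac1 in 3 of 6 and Pglyrp1 in 4 of 6. With the choroid plexus level of each library as a covariate, or the striatal level, 0 genes were called, and 1055 and 784 had an unadjusted p under 0.05. The striatal levels of the wild-type ages did not overlap. That covariate is therefore partly confounded with age, and the calls lost with it cannot be interpreted. Choroid plexus levels also differed between the ages, by a mean of 1.41 log2, and overlapped only through WT 2 of 6 months. The choroid plexus covariate is thus partly confounded with age too, and the calls lost with it cannot be interpreted either. On leaving out 1 wild-type library, the log2 changes ran from 1.21 to 1.37 in Pglyrp1, 1.22 to 1.63 in Cfap54, 1.09 to 1.40 in Gapdh, −0.97 to −0.75 in Hdac1, −1.95 to −1.83 in Gm5900 and −0.84 to −0.73 in Art3. Under the choroid plexus covariate they were 1.17 in Pglyrp1, 1.02 in Cfap54, 1.34 in Gapdh, −0.75 in Hdac1, −2.15 in Gm5900 and −0.76 in Art3. Under the striatal covariate they were 1.32 in Pglyrp1, 1.52 in Cfap54, 1.49 in Gapdh, −0.75 in Hdac1, −2.27 in Gm5900 and −0.57 in Art3.

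Next in order of p, and not called, came 5 genes in each direction. Fut10, a fucosyltransferase, averaged 2.58 ± 0.173 FPKM at 9 months and 1.52 ± 0.176 FPKM at 6 months (limma BH-adjusted p = 0.0865). Nr4a1, also higher at 9 months, is described below. Kcnj16, a potassium channel subunit, averaged 7.03 ± 0.282 FPKM at 9 months and 5.64 ± 0.130 FPKM at 6 months (limma BH-adjusted p = 0.107). The pseudogenes Gm10269 and Gm9830 had log2 differences of 0.65 and 2.61. Among the lower genes, Lingo3, a leucine-rich repeat membrane protein, averaged 14.3 ± 0.568 FPKM at 9 months and 18.8 ± 1.66 FPKM at 6 months (limma BH-adjusted p = 0.0935). Abl2, a tyrosine kinase that acts on the cytoskeleton, averaged 18.5 ± 0.229 FPKM at 9 months and 23.3 ± 1.42 FPKM at 6 months. Emr1, the F4/80 antigen of macrophages, averaged 1.35 ± 0.160 FPKM at 9 months and 2.24 ± 0.0510 FPKM at 6 months. Lyz2, the lysozyme of myeloid cells, averaged 4.11 ± 0.455 FPKM at 9 months and 6.86 ± 0.964 FPKM at 6 months (limma BH-adjusted p = 0.110). Sspn, sarcospan, of the dystrophin complex, averaged 1.11 ± 0.202 FPKM at 9 months and 2.33 ± 0.538 FPKM at 6 months (limma BH-adjusted p = 0.111). In each of these 10 genes the groups did not overlap, and Lyz2 has a near-identical neighbour with which reads can be shared.

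The other results are given for 39 lists of genes for cell types, brain regions and pathways. None of their members was called over all genes, so each list is described by its counts and its median, to be read against 17.7% of all genes without overlap (8.55% higher and 9.17% lower) and a median near 0. Without 1 wild-type library at a time, the list median turned sign in 18 of the 39 lists. Of these, 16 were among the 25 lists whose median lay within 0.1 of 0, so that no direction is read from those, and the others were blood cells and antigen presentation. A range given beside a median below is that over the 6 fits without 1 library.

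**Figure D2:**
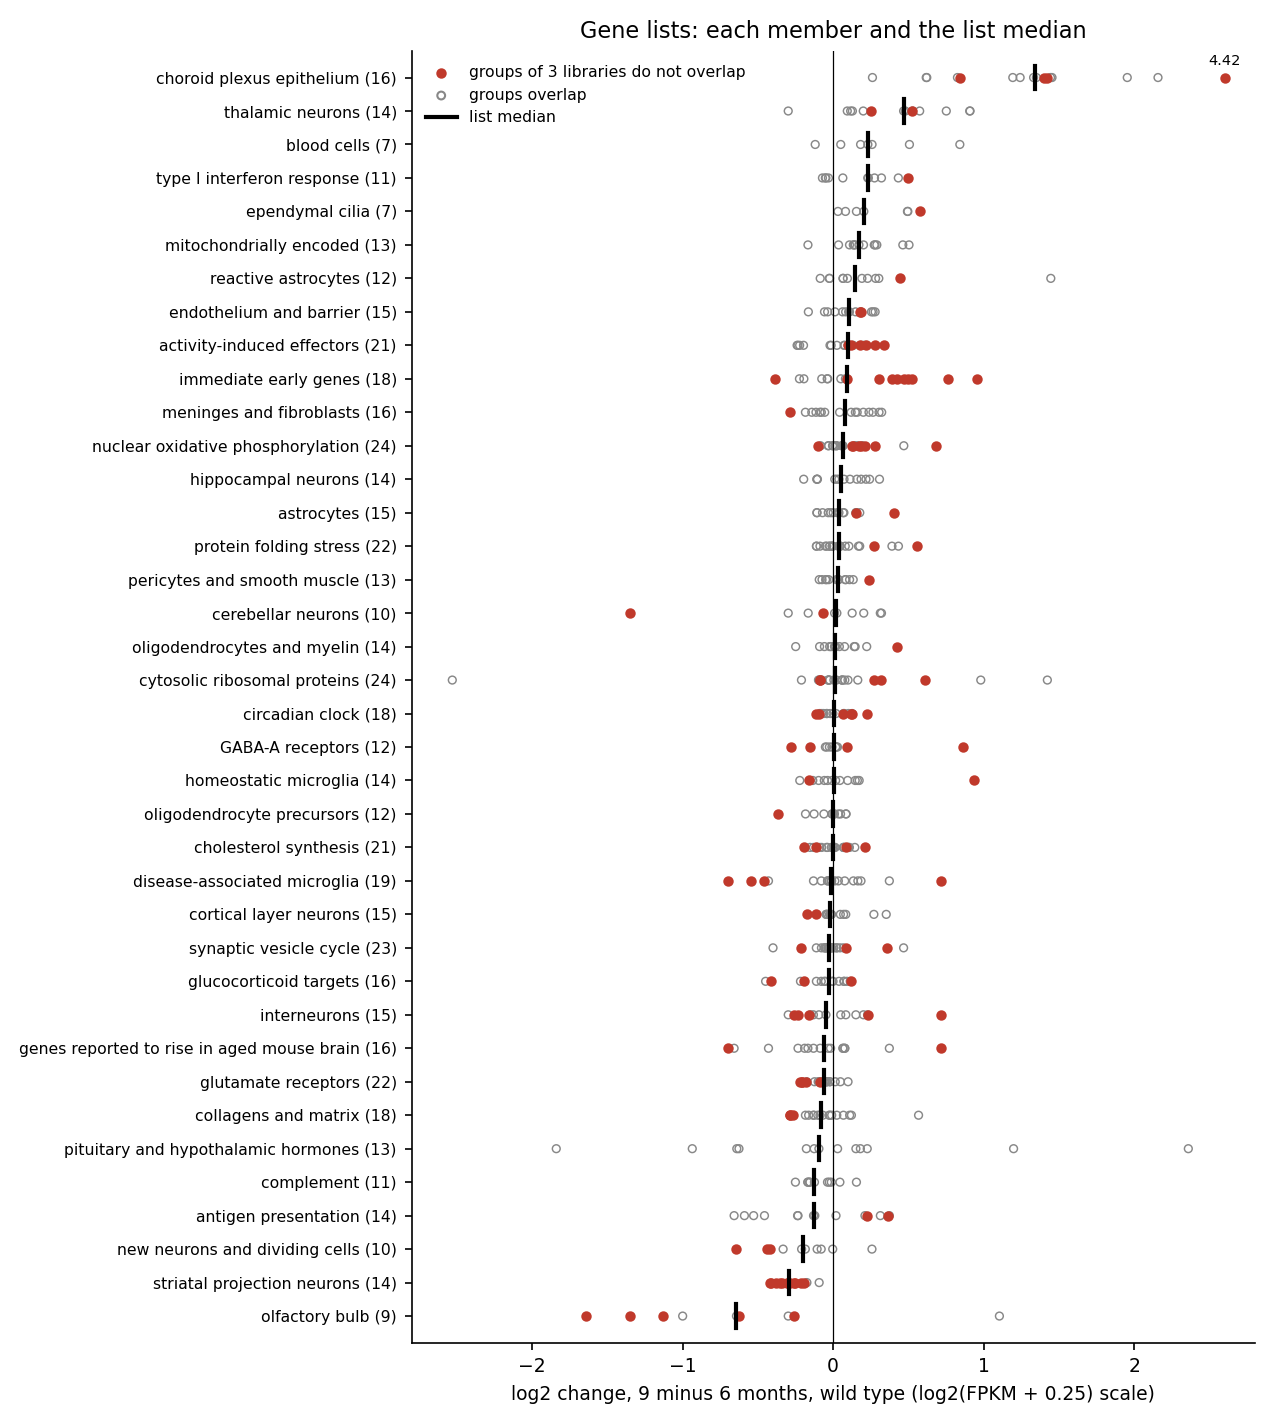
Log2 change, 9 minus 6 months, wild type (x axis, on log2(FPKM + 0.25)), of every tested member of 38 gene lists (y axis, number of tested members in brackets), ordered by list median (black bars). Filled points are genes whose 3 libraries of 9 months do not overlap the 3 of 6 months, open points are genes that overlap, and the Ttr point at 4.42 is drawn at the right edge. Choroid plexus genes lie furthest to the right, and striatal and olfactory bulb genes to the left.

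Immediate early genes had more separated members than all genes did. All 18 were tested, 12 were above 0 and the median was 0.09, or 0.20 without WT 3 of 9 months. In 9 of them the libraries of 9 months lay above all of 6 months, and in 1 below, 55.6% without overlap against 17.7% of all genes. Nr4a1, an orphan nuclear receptor induced by firing, had 36.8, 34.01 and 36.2 FPKM at 9 months, against 20.1, 18.4 and 24.8 FPKM at 6 months. The lowest library of 9 months was well above the highest of 6 months, with a log2 difference of 0.76 (SE 0.12, limma BH-adjusted p = 0.0865), which did not pass. Without WT 3 of 6 months it passed (limma BH-adjusted p = 0.0359).

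The promoters of members are shown because these genes share control elements: the cAMP response element, bound by CREB, and the CArG box, bound by serum response factor. The 250 bases before the RefSeq start are given 5′ to 3′ on the strand of the gene (RefSeq, GRCm38.p6), for 4 members that were higher without overlap (Nr4a1, Junb, Dusp1 and Fos) and for Npas4, which was lower. Capitals mark matches on either strand to the full element TGACGTCA or to its 5-letter part TGACG, which lies inside the full element and reads CGTCA on the other strand.
Nr4a1 (chr15:101266596-101266845, plus strand): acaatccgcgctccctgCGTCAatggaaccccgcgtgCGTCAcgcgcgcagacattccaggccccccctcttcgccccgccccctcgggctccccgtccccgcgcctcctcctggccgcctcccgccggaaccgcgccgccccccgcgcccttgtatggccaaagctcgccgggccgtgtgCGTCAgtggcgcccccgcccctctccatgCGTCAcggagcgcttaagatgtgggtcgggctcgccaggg
Junb (chr8:84978749-84978998, minus strand): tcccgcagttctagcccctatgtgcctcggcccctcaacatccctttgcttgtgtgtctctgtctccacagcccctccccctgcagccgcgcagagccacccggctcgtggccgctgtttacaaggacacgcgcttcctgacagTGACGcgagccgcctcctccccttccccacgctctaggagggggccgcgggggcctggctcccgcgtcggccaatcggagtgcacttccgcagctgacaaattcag
Dusp1 (chr17:26508473-26508722, minus strand): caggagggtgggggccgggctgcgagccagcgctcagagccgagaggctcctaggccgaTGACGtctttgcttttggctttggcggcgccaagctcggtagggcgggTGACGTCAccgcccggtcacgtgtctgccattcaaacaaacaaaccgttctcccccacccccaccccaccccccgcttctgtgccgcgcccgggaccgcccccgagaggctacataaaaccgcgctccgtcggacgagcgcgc
Fos (chr12:85473640-85473889, plus strand): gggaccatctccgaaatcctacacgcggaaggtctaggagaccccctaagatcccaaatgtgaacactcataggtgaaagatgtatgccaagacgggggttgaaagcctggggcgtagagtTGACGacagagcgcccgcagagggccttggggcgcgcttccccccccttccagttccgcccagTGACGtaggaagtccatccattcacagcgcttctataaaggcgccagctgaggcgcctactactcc
Npas4 (chr19:4989972-4990221, minus strand): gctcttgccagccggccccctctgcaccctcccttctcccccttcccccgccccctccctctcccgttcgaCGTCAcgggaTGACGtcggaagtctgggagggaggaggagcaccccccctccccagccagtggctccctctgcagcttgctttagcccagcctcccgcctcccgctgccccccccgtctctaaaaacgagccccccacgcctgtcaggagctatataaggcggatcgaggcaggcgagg
Of all 32851 promoter windows of the same length in the RefSeq table, 1.55% held TGACGTCA, 17.8% held TGACG and 1.47% held the CArG box. Among the immediate early genes, 14 of 18 had an entry and 13 a single one. TGACG was found in 10 of these 13, TGACGTCA in 2 (Dusp1 and Btg2) and the CArG box in 0. TGACG was in 4 of the 5 of them that were higher without overlap, all shown above, and in 6 of the other 8. The exception among the higher ones was Ier5, which held no match to any of these elements and is not shown. Egr2, with 5 entries, held the CArG box in 4 of them. These matches describe letters in a window and not binding.

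Junb, a partner in the AP-1 transcription factor, had 29.2, 33.2 and 29.1 FPKM at 9 months, against 21.6, 21.3 and 22.8 FPKM at 6 months. Egr1, a zinc finger factor of activated neurons, had 55.5, 57.1 and 60.6 FPKM at 9 months, against 41.8, 39.7 and 50.9 FPKM at 6 months. In both genes the groups were apart, and neither passed (log2 0.47 and 0.39, limma BH-adjusted p = 0.169 and 0.202). Arc, which acts at synapses in the removal of AMPA receptors, had 94.5, 86.2 and 80.9 FPKM at 9 months, against 51.6, 65.2 and 65.6 FPKM at 6 months. In Arc the groups were apart, with WT 1 of 6 months the lowest. Fos, which pairs with Jun proteins in AP-1, had 11.9, 12.03 and 9.44 FPKM at 9 months, against 6.65, 7.59 and 9.25 FPKM at 6 months. WT 3 of 9 months and WT 3 of 6 months were almost level. Dusp1, a phosphatase of MAP kinases, averaged 17.9 ± 1.59 FPKM at 9 months and 13.3 ± 1.36 FPKM at 6 months. Egr2, Ier2 and Ier5 were also higher without overlap, with log2 differences of 0.95, 0.30 and 0.09. Npas4, a factor of the neuron's response to calcium, lay the other way at 2.69, 3.23 and 2.62 FPKM at 9 months, against 3.97, 3.51 and 3.898 FPKM at 6 months. The members Fosb, Nr4a2, Nr4a3, Btg2, Fosl2, Egr3, Egr4 and Jun overlapped between ages, with log2 differences of −0.22 to 0.09.

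**Figure D3:**
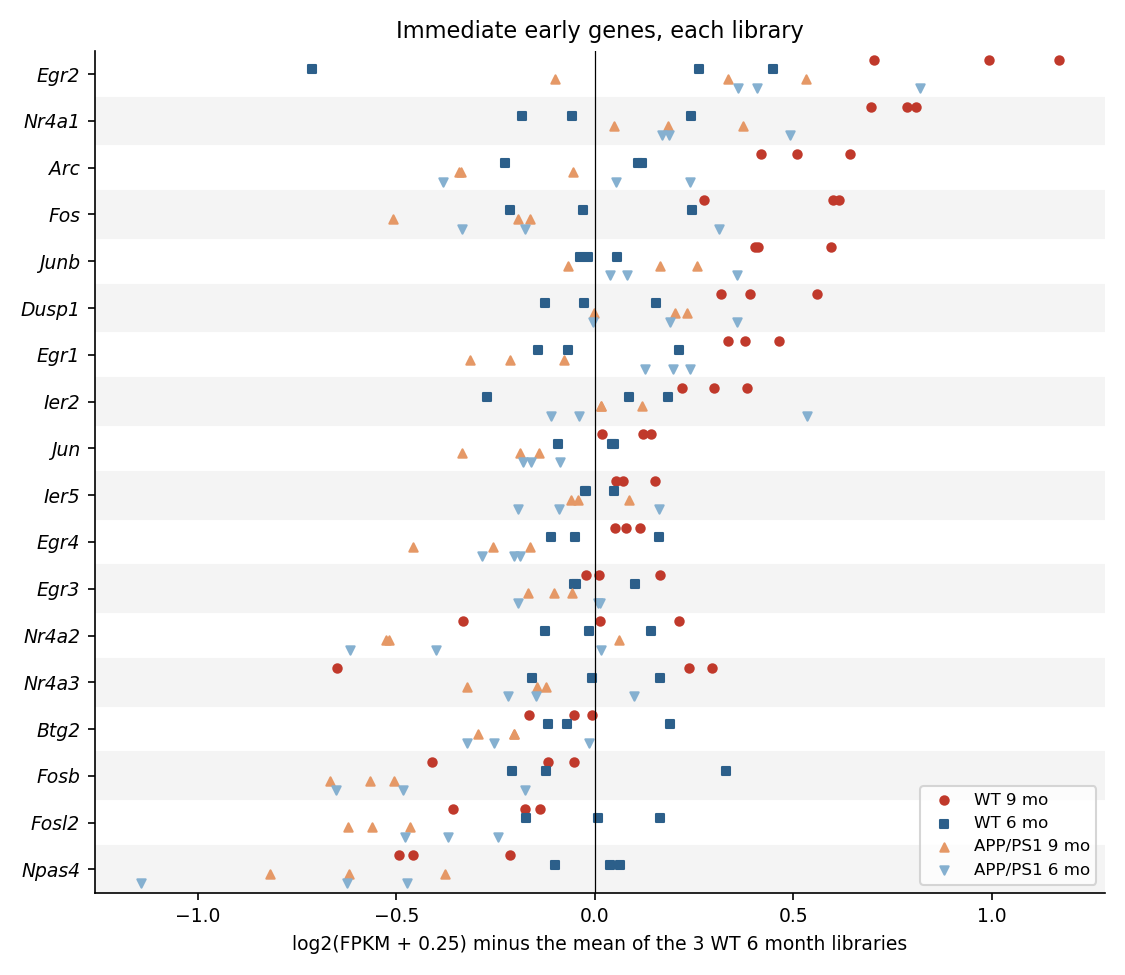
Level of each immediate early gene (y axis) in each of the 12 long RNA libraries as log2(FPKM + 0.25) minus the mean of the 3 wild-type libraries of 6 months (x axis). Red circles are WT 9 months, blue squares WT 6 months, orange and light blue triangles APP/PS1 9 and 6 months. In 9 genes, Egr2 and Nr4a1 among them, all red circles lie to the right of all blue squares, and at Npas4 to the left.

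The same genes in APP/PS1 mice had a median log2 difference, 9 minus 6 months, of −0.08, with 3 of 18 above 0. There 0 members were higher and 1 was lower at 9 months without overlap, against 10.8% and 6.73% of all genes. The test of the difference between genotypes did not pass for any of the 18 members. Egr1 was the nearest to passing, with a log2 difference of −0.39 in APP/PS1 and 0.39 in wild type (limma BH-adjusted p = 0.186 for the difference between genotypes).

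Of 21 genes that activity induces as effectors, such as growth factors and phosphatases, 15 were above 0 (median 0.10, range 0.05 to 0.13), 6 were higher without overlap and 0 lower. Dusp6, a phosphatase of MAP kinases, averaged 24.2 ± 0.632 FPKM at 9 months and 19.1 ± 1.23 FPKM at 6 months. Dusp4, of the same family, averaged 7.77 ± 0.182 FPKM at 9 months and 6.39 ± 0.768 FPKM at 6 months. Clock genes were split, with 9 of 18 above 0 (median 0.01), 4 higher and 2 lower without overlap. Bhlhe40, a repressor in the clock, averaged 42.9 ± 2.68 FPKM at 9 months and 36.7 ± 0.505 FPKM at 6 months. Per1, a clock repressor that glucocorticoids and activity also induce, had 27.7, 27.4 and 28.05 FPKM at 9 months, against 25.9, 24.9 and 25.9 FPKM at 6 months, a narrow gap. Cry2, another repressor, averaged 36.4 ± 2.26 FPKM at 9 months and 38.9 ± 0.480 FPKM at 6 months. Among 16 glucocorticoid targets, 6 were above 0 (median −0.03), 1 was higher and 2 lower without overlap. Zbtb16, a transcription factor that glucocorticoids induce, had 23.5, 24.4 and 21.1 FPKM at 9 months, against 30.4, 35.1 and 26.7 FPKM at 6 months. Klf9, another such factor, averaged 65.3 ± 1.14 FPKM at 9 months and 74.9 ± 4.13 FPKM at 6 months. The labels give neither the time of day nor the handling before death.

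Markers of small or peripheral brain tissues differed between libraries within an age as well as between ages. Choroid plexus genes were above 0 in 16 of 16 (median 1.34), with 4 (Ttr, Kcnj13, F5 and Enpp2) higher without overlap. Ttr, transthyretin, the main secreted protein of this epithelium, had 286, 317 and 325 FPKM at 9 months, against 1.34, 267 and 6.94 FPKM at 6 months. WT 1 and WT 3 of 6 months were low, whereas WT 2 of 6 months was nearly as high as the libraries of 9 months. The mean log2 level over the 16 genes was 2.10, 2.25 and 2.32 at 9 months, against −0.09, 2.21 and 0.33 at 6 months. Enpp2, a secreted lysophospholipase, had 109.9, 115 and 125 FPKM at 9 months, against 51.5, 100.1 and 52.7 FPKM at 6 months. Kcnj13, a potassium channel, had 3.79, 4.01 and 3.33 FPKM at 9 months, against 0.714, 2.904 and 0.804 FPKM at 6 months. Folr1, a folate receptor, had 2.69, 3.61 and 3.75 FPKM at 9 months, against 0.106, 3.03 and 0.188 FPKM at 6 months. In each of these genes WT 1 and WT 3 of 6 months were again the low libraries. Ttr did not pass (limma BH-adjusted p = 0.345). It passed without WT 2 of 6 months (0.0201), and did not without any other wild-type library (0.496 to 0.554). With WT 2 as the only library of 6 months, an alternative added after the data were seen, the difference in mean log2 level was 0.0144 in place of 1.41.

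Ependymal genes, of the ciliated cells that line the ventricles, were above 0 in 7 of 7 tested (median 0.20), 1 of them without overlap. Ccdc153, a protein of cilia, had 0.874, 1.34 and 1.07 FPKM at 9 months, against 0.623, 0.722 and 0.589 FPKM at 6 months. The mean log2 level of the list was 0.58, 0.75 and 0.65 at 9 months, against 0.23, 0.70 and 0.17 at 6 months. As in Cfap54, WT 2 was the highest library of 6 months. With the choroid plexus level as a covariate the log2 change of Cfap54 was 1.02 (limma BH-adjusted p = 0.256), against 1.37 without it. The list median was 0.10 without WT 3 of 6 months and 0.44 without WT 2 of 6 months. It was at 0 (−0.00178) with that covariate, which is partly confounded with age.

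Thalamic genes were above 0 in 13 of 14 (median 0.47). Rora and Lef1 were higher without overlap, 14.3% of the list against 17.7% without overlap over all genes. The mean log2 level was 3.44, 3.54 and 3.30 at 9 months, against 2.31, 3.42 and 3.34 at 6 months, with WT 1 of 6 months far below the other libraries. Prkcd, a protein kinase C of thalamic relay neurons, had 24.5, 20.6 and 20.7 FPKM at 9 months, against 3.67, 22.1 and 18.3 FPKM at 6 months. Tcf7l2, a transcription factor of the thalamus, had 11.4, 14.9 and 8.03 FPKM at 9 months, against 2.53, 7.99 and 9.44 FPKM at 6 months. Both genes overlapped between ages. Without WT 1 of 6 months the list median was 0.09. It was 0.03 with the choroid plexus level as a covariate, which is partly confounded with age.

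Olfactory bulb genes were above 0 in 1 of 9 (median −0.64), with 5 lower without overlap. Over this list the mean log2 level was 0.84, 1.08 and 0.82 at 9 months, against 1.55, 1.21 and 1.93 at 6 months. Doc2g, a protein of mitral and tufted cells, had 1.05, 0.846 and 1.18 FPKM at 9 months, against 4.73, 1.69 and 6.15 FPKM at 6 months. Cdhr1, a cadherin of the same cells, had 2.27, 2.12 and 1.76 FPKM at 9 months, against 6.31, 2.51 and 6.65 FPKM at 6 months. WT 2 of 6 months was the library of that age closest to 9 months in both. Reln, the secreted protein reelin, had 15.9, 15.2 and 15.6 FPKM at 9 months, against 19.9, 17.05 and 19.2 FPKM at 6 months. On leaving out 1 wild-type library the list median stayed between −0.98 and −0.57. With the choroid plexus level as a covariate it was 0.03, on the other side of 0. That level itself differed between the ages, by 1.41, so the covariate is partly confounded with age.

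**Figure D4:**
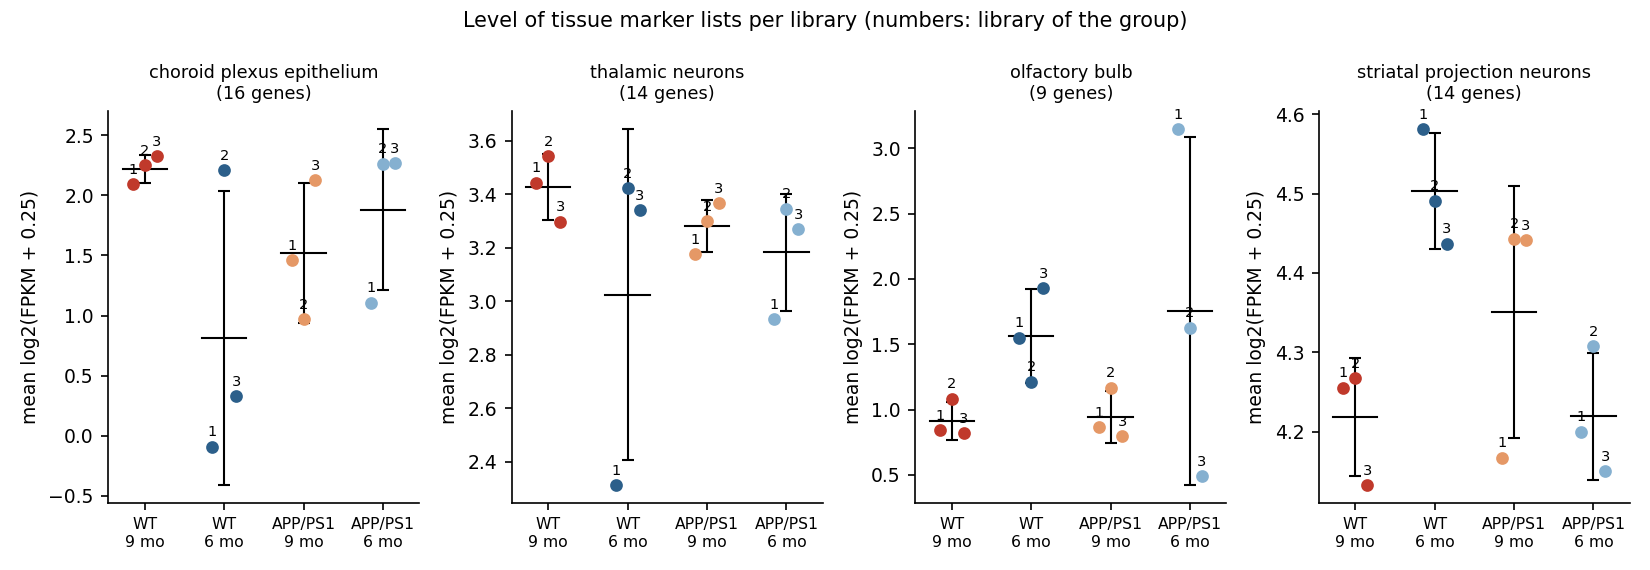
Mean log2(FPKM + 0.25) (y axis, not from 0) over the genes of 4 tissue lists in each library (points, numbered by library), with the mean and SD of 3 libraries (bars), by genotype and age (x axis). WT 1 and WT 3 of 6 months are low in choroid plexus genes, WT 1 of 6 months is low in thalamic genes, and in the olfactory bulb and striatal lists the wild-type libraries of 9 months all lie below those of 6 months.

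Striatal projection neuron genes had the largest share of separated members among the 39 lists. All 14 tested members were below 0 (median −0.29), and 12 were lower without overlap (85.7%, against 9.17% lower without overlap over all genes). The mean log2 level was 4.26, 4.27 and 4.13 at 9 months, against 4.58, 4.49 and 4.44 at 6 months, with no library between the groups. Without 1 wild-type library at a time the median stayed between −0.33 and −0.21.

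Adora2a, the adenosine receptor of neurons that project to the external pallidum, had 12.3, 11.7 and 11.5 FPKM at 9 months, against 18.1, 14.6 and 15.4 FPKM at 6 months. Rgs9, which speeds the end of signalling by G proteins, had 21.5, 22.2 and 21.8 FPKM at 9 months, against 33.5, 27.96 and 26.5 FPKM at 6 months. In both genes the ages were apart, and neither passed (log2 −0.42 and −0.41, limma BH-adjusted p = 0.131 and 0.168). Ppp1r1b, the phosphoprotein DARPP-32 downstream of dopamine receptors, had 116, 115 and 108 FPKM at 9 months, against 147, 133 and 124 FPKM at 6 months. Pde10a, which degrades cyclic nucleotides, averaged 42.3 ± 1.67 FPKM at 9 months and 51.6 ± 2.6004 FPKM at 6 months. Adcy5, the adenylyl cyclase of these cells, averaged 53.1 ± 1.86 FPKM at 9 months and 63.6 ± 5.07 FPKM at 6 months. In all of these every library of 9 months was below every library of 6 months.

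Penk, the enkephalin precursor of indirect pathway neurons, had 93.9, 92.98 and 75.3 FPKM at 9 months, against 112, 106 and 104 FPKM at 6 months. Tac1, the substance P precursor of direct pathway neurons, had 31.1, 33.3 and 24.6 FPKM at 9 months, against 36.8, 35.7 and 42.8 FPKM at 6 months. Pdyn, the dynorphin precursor of the same neurons, had 16.1, 14.5 and 11.4 FPKM at 9 months, against 18.1, 16.9 and 16.6 FPKM at 6 months. WT 3 of 9 months was the lowest library for these 3 peptides. Drd2, the dopamine receptor of the indirect pathway, had 12.3, 12.6 and 10.7 FPKM at 9 months, against 14.1, 14.2 and 12.01 FPKM at 6 months. Isl1, a factor of direct pathway development, had 1.17, 1.19 and 1.28 FPKM at 9 months, against 1.04, 1.43 and 1.51 FPKM at 6 months. Both overlapped between ages. For APP/PS1 mice the median log2 difference of the list was 0.09, with 12 of 14 above 0 and 1 higher without overlap. The test between genotypes, over all genes in limma, passed for 0 members, and Adora2a was the nearest to passing (limma BH-adjusted p = 0.186).

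**Figure D5:**
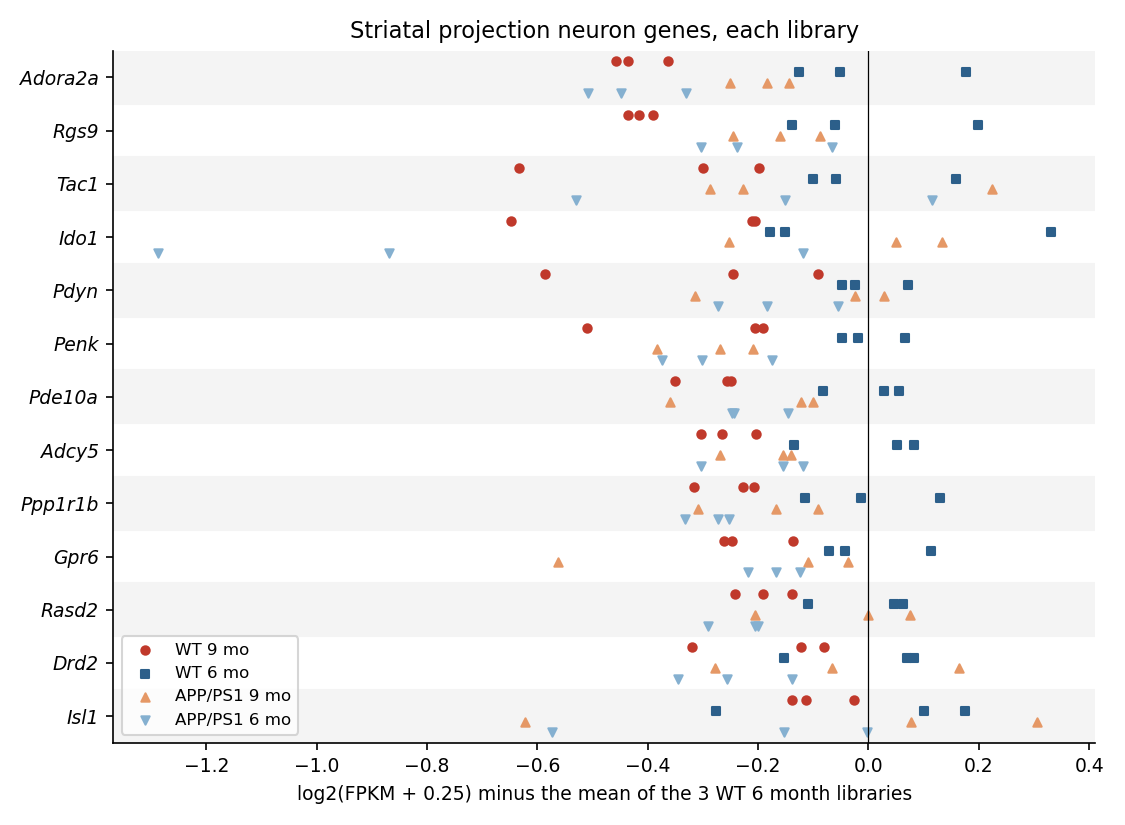
Level of 13 of the 14 striatal genes (y axis) in each of the 12 long RNA libraries as log2(FPKM + 0.25) minus the mean of the 3 wild-type libraries of 6 months (x axis). Red circles are WT 9 months, blue squares WT 6 months, orange and light blue triangles APP/PS1 9 and 6 months. In 11 of these 13 genes every red circle lies to the left of every blue square; Drd2 and Isl1 overlap.

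Genes of the cortex, hippocampus and cerebellum had smaller shares of separated members. Cortical layer genes were above 0 in 5 of 15 (median −0.02), with 2 lower without overlap. Bcl11b, a factor of deep layer and also striatal neurons, averaged 30.2 ± 1.298 FPKM at 9 months and 34.1 ± 1.23 FPKM at 6 months. Cux1, of upper layers, averaged 20.6 ± 0.403 FPKM at 9 months and 22.3 ± 0.732 FPKM at 6 months. Hippocampal genes were above 0 in 10 of 14 (median 0.06) with 0 apart, and Prox1, of dentate granule cells, averaged 7.43 ± 0.413 FPKM at 9 months and 6.27 ± 0.883 FPKM at 6 months. Cerebellar genes were above 0 in 6 of 10 (median 0.02), with Itpr1 and Eomes, which is also in the olfactory bulb list, lower without overlap. Pcp4, a calmodulin-binding peptide, averaged 110.0 ± 8.44 FPKM at 9 months and 88.6 ± 14.4 FPKM at 6 months and overlapped. Hormone genes of pituitary and hypothalamus spread from −1.84 to 2.36 (13 tested, 6 above 0, 0 apart, median −0.09, or 0.16 without WT 3 of 9 months) with large differences between libraries of an age: Oxt, oxytocin, averaged 5.09 ± 6.88 FPKM at 9 months and 11.02 ± 7.82 FPKM at 6 months.

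Most genes of neurotransmission differed by small amounts. Glutamate receptor genes were below 0 in 19 of 22 (median −0.06), with 5 lower without overlap and 0 higher. The kainate receptor subunits Grik1, Grik2, Grik3 and Grik5 were 4 of these 5. Grik2 had 14.01, 14.4 and 14.5 FPKM at 9 months, against 16.2, 16.5 and 16.9 FPKM at 6 months. Grik5 had 52.9, 50.03 and 53.3 FPKM at 9 months, against 65.3, 60.8 and 56.03 FPKM at 6 months. The groups were apart, and neither gene passed (limma BH-adjusted p = 0.269 and 0.339). Grm8, a presynaptic metabotropic receptor, averaged 5.58 ± 0.319 FPKM at 9 months and 6.35 ± 0.325 FPKM at 6 months.

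GABA-A receptor genes were split, 6 of 12 above 0. Gabra2, an alpha subunit, had 30.7, 42.4 and 41.5 FPKM at 9 months, against 16.5, 29.6 and 18.05 FPKM at 6 months, apart by a narrow margin. Gabrg3, a gamma subunit, averaged 5.41 ± 0.305 FPKM at 9 months and 6.605 ± 0.142 FPKM at 6 months. Gabrd, of extrasynaptic receptors, averaged 22.03 ± 0.811 FPKM at 9 months and 24.6 ± 0.719 FPKM at 6 months. These 2 genes were lower without overlap. In the synaptic vesicle cycle 8 of 23 were above 0 (median −0.03), with 2 higher and 1 lower without overlap. The lower one was Syn3, a synapsin, at 7.51 ± 0.348 FPKM at 9 months and 8.75 ± 0.552 FPKM at 6 months (limma BH-adjusted p = 0.381). Vamp1, a vesicle fusion protein, had 47.9, 57.6 and 53.1 FPKM at 9 months, against 38.1, 42.1 and 43.1 FPKM at 6 months, without overlap (log2 0.36, limma BH-adjusted p = 0.148). Syt1, the calcium sensor of release, had 179, 169 and 165 FPKM at 9 months, against 254, 177 and 253 FPKM at 6 months. WT 2 of 6 months lay among the libraries of 9 months.

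Interneuron genes were divided, with 7 of 15 above 0 (median −0.05), 2 higher and 3 lower without overlap. Pvalb, parvalbumin, of fast-spiking cells, had 44.3, 46.3 and 41.8 FPKM at 9 months, against 38.4, 35.3 and 39.1 FPKM at 6 months. Lhx6, a factor of cells from the medial ganglionic eminence, had 4.38, 4.95 and 4.996 FPKM at 9 months, against 2.41, 3.25 and 2.804 FPKM at 6 months. Both were higher without overlap. Gad1, which makes GABA and is shared with striatal neurons, averaged 114 ± 5.36 FPKM at 9 months and 134 ± 10.1 FPKM at 6 months. Slc32a1, the vesicular GABA transporter, averaged 41.1 ± 2.27 FPKM at 9 months and 46.01 ± 2.39 FPKM at 6 months. Both of these were lower without overlap, as was Reln. Genes of new neurons and dividing cells were above 0 in 1 of 10 (median −0.20), with 3 lower without overlap. Dlx1, a factor of newborn interneurons of the olfactory bulb, had 3.64, 3.37 and 3.37 FPKM at 9 months, against 5.61, 4.54 and 6.68 FPKM at 6 months. Sox4, of immature neurons, averaged 5.12 ± 0.160 FPKM at 9 months and 6.97 ± 0.844 FPKM at 6 months. In Dlx1, as in Doc2g of the olfactory bulb list, WT 3 was the highest and WT 2 the lowest library of 6 months. The olfactory bulb levels of the wild-type ages did not overlap, so that level as a covariate is partly confounded with age. With it, added after the data were seen, the median of the list was −0.17, which cannot be interpreted. It was −0.05 with the choroid plexus covariate and −0.09 with the highest transcript per gene, and −0.23 to −0.17 on leaving out 1 library.

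Microglial genes were divided. Homeostatic genes were above 0 in 7 of 14 (median near 0), with 1 higher and 1 lower without overlap (14.3%, against 17.7% of all genes). Genes of the disease-associated state were above 0 in 8 of 19 (median −0.01), with 1 higher and 3 lower without overlap. Fcrls, an Fc receptor-like gene of microglia, had 3.11, 4.89 and 3.84 FPKM at 9 months, against 2.59, 1.38 and 1.94 FPKM at 6 months. Gpnmb, a glycoprotein of lysosome-loaded macrophages, had 0.560, 0.567 and 0.520 FPKM at 9 months, against 0.277, 0.208 and 0.223 FPKM at 6 months. Both were higher without overlap. Lyz2 lay the other way, with 4.63, 3.77 and 3.95 FPKM at 9 months, against 5.76, 7.25 and 7.57 FPKM at 6 months. Lpl, lipoprotein lipase, averaged 6.48 ± 1.86 FPKM at 9 months and 9.31 ± 0.807 FPKM at 6 months. Apoe, the lipid carrier, averaged 241 ± 32.9 FPKM at 9 months and 336 ± 83.7 FPKM at 6 months. These 3 genes were lower without overlap. Genes that earlier work reported to rise in aged mouse brain were above 0 in 6 of 16 (median −0.06, or 0.03 without WT 1 of 9 months), with 1 higher (Gpnmb) and 1 lower (Lyz2) without overlap.

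Complement genes were below 0 in 9 of 11 (median −0.12) with 0 apart. Their median was −0.01 without WT 1 of 9 months, and −0.14 to −0.01 over all fits without 1 wild-type library. It was 0.04 with the striatal covariate, which is partly confounded with age, so that value cannot be interpreted. C1qc, of the C1q complex, averaged 15.2 ± 2.94 FPKM at 9 months and 17.9 ± 0.935 FPKM at 6 months. Type I interferon genes were above 0 in 7 of 11 (median 0.23). That median was 0.07 without WT 2 of 6 months, 0.09 without WT 2 of 9 months and 0.08 with the highest transcript per gene. The member apart was Bst2, tetherin, which had 2.97, 2.61 and 2.73 FPKM at 9 months, against 1.67, 2.34 and 1.704 FPKM at 6 months. Antigen presentation genes were above 0 in 6 of 14 (median −0.13), and the median lay on the other side of 0 without WT 1 of 9 months (0.04) or WT 3 of 6 months (0.02). Psmb8 and Psmb9, subunits of the immunoproteasome, were higher without overlap, and Psmb8 had 1.28, 1.505 and 1.403 FPKM at 9 months, against 1.12, 1.01 and 0.947 FPKM at 6 months.

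Among other glia, astrocyte genes were above 0 in 10 of 15 (median 0.04), with 2 apart (13.3%, against 17.7% of all genes). Sox9, a transcription factor of astrocytes, had 8.45, 11.1 and 9.81 FPKM at 9 months, against 7.42, 6.26 and 8.41 FPKM at 6 months. Atp1b2, a sodium pump subunit, averaged 128 ± 7.39 FPKM at 9 months and 114 ± 1.98 FPKM at 6 months. Both were higher without overlap. Reactive astrocyte genes were above 0 in 9 of 12 (median 0.14, or 0.06 without WT 1 of 6 months and −0.04 with the choroid plexus covariate), with 1 apart, Emp1 (1.17 ± 0.0694 FPKM at 9 months and 0.808 ± 0.237 FPKM at 6 months). Myelin genes were above 0 in 9 of 14 (median 0.01). Ermn, a late protein of myelinating cells, had 17.2, 19.8 and 19.3 FPKM at 9 months, against 14.8, 11.9 and 15.4 FPKM at 6 months. Gpr17, a receptor of cells about to become oligodendrocytes, had 7.604, 7.04 and 6.89 FPKM at 9 months, against 8.46, 10.4 and 9.21 FPKM at 6 months. The ages were apart in both, in opposite directions, and neither gene passed (limma BH-adjusted p = 0.332 and 0.299). The remaining precursor genes overlapped (6 of 12 above 0, median near 0).

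Vascular and support genes differed by small amounts. Endothelial and barrier genes were above 0 in 12 of 15 (median 0.11, range 0.08 to 0.19), with 2 apart (13.3%, against 17.7% of all genes). Flt1, a VEGF receptor, had 12.7, 12.8 and 12.8 FPKM at 9 months, against 10.7, 11.4 and 11.5 FPKM at 6 months. Cdh5, the cadherin of endothelial junctions, averaged 3.71 ± 0.213 FPKM at 9 months and 3.24 ± 0.253 FPKM at 6 months. Both were higher without overlap. Pericyte and smooth muscle genes were above 0 in 8 of 13 (median 0.03). Matrix genes were above 0 in 5 of 18 (median −0.08, range −0.13 to −0.02), with Col1a2, Col4a2 and Col11a1 lower without overlap. Col4a2, of basement membranes, had 5.15, 5.202 and 5.07 FPKM at 9 months, against 6.17, 6.898 and 5.71 FPKM at 6 months. Meningeal genes (9 of 16, median 0.08) and blood cell genes (6 of 7, median 0.23) overlapped except Col1a2. The blood cell median was −0.06 without WT 3 of 9 months, 0.42 without WT 1 of 9 months and 0.12 without WT 2 of 9 months, and 0.09 without WT 1 of 6 months. The meningeal median was −0.01 without WT 2 of 9 months and −0.08 with the choroid plexus covariate.

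In energy supply, nuclear genes of oxidative phosphorylation were above 0 in 18 of 24 (median 0.06, range 0.05 to 0.12), with 7 higher and 1 lower without overlap (33.3%, against 17.7% of all genes). Cox4i1, a subunit of cytochrome oxidase, had 377, 368 and 332 FPKM at 9 months, against 239.8, 212 and 217 FPKM at 6 months. Uqcrb, of complex III, had 66.5, 66.7 and 69.4 FPKM at 9 months, against 59.3, 48.2 and 60.7 FPKM at 6 months. The ages were apart in both, and neither gene passed (limma BH-adjusted p = 0.308 and 0.308). In the fit on wild-type libraries alone Cox4i1 did pass. Atp5j, of the ATP synthase, averaged 93.2 ± 1.71 FPKM at 9 months and 80.6 ± 4.51 FPKM at 6 months. Ndufa4, a cytochrome oxidase subunit, averaged 219 ± 6.82 FPKM at 9 months and 193 ± 15.1 FPKM at 6 months. The APP/PS1 libraries had, for Cox4i1, 350.3, 223 and 339.9 FPKM at 9 months and 198, 348 and 318 FPKM at 6 months, with 1 low library at each age. The 13 genes encoded by mitochondrial DNA were above 0 in 12 (median 0.17, range 0.12 to 0.31) and overlapped in all. Their summed FPKM was 22163, 21808 and 18850.3 at 9 months, against 21022, 16775 and 19283 at 6 months.

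Ribosomal protein genes were above 0 in 13 of 24 (median 0.01, range −0.02 to 0.04), and single members lay between −2.53 and 1.42. Of the members 3 were higher and 2 lower without overlap, and processed copies can share their reads. Rpl23 had 42.8, 47.6 and 45.5 FPKM at 9 months, against 39.9, 35.3 and 37.5 FPKM at 6 months, without overlap. In protein folding stress 12 of 22 were above 0 (median 0.04). Hspa8, the constitutive chaperone, had 799, 794 and 731 FPKM at 9 months, against 603, 480.4 and 506 FPKM at 6 months. Atf4, a factor of the stress response, had 38.00, 36.8 and 49.8 FPKM at 9 months, against 32.3, 33.8 and 36.1 FPKM at 6 months. Both were higher without overlap, Atf4 by a small margin. Cholesterol synthesis genes were above 0 in 10 of 21 (median near 0), with Sc5d and Hmgcs1 higher and Fdft1 and Lss lower without overlap. Sc5d, a desaturase late in the pathway, had 18.3, 18.6 and 18.2 FPKM at 9 months, against 16.9, 14.9 and 15.8 FPKM at 6 months. Fdft1, squalene synthase, had 24.2, 24.7 and 23.05 FPKM at 9 months, against 26.1, 26.2 and 25.7 FPKM at 6 months.

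No gene was targeted in wild type. App, the amyloid precursor that a transgene of the APP/PS1 mice carries, averaged 448 ± 4.67 FPKM at 9 months and 437 ± 3.79 FPKM at 6 months. Prnp, the prion protein gene, averaged 263 ± 8.32 FPKM at 9 months and 253 ± 3.604 FPKM at 6 months. The log2 differences were 0.04 and 0.05 (limma BH-adjusted p = 0.775 and 0.654).

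Whether the effect of age differed between genotypes was tested over the same 13593 genes, as the log2 change in APP/PS1 minus that in wild type. It passed in 1 gene (0.00736%), Hdac1, while 1533 (11.3%) had an unadjusted p under 0.05. Hdac1 had 5.38, 5.21 and 5.64 FPKM at 9 months and 3.75, 3.501 and 3.07 FPKM at 6 months in APP/PS1, the opposite order to wild type, with a difference of 1.52 (limma BH-adjusted p = 0.0174). With the choroid plexus or the striatal level as a covariate, or without WT 1 of 9 months, 0 genes passed. Both covariates are partly confounded with age in wild type, so a call lost with either cannot be interpreted. The sum of Hdac1 and its pseudogene averaged 7.52 ± 0.185 FPKM at 9 months and 6.61 ± 0.532 FPKM at 6 months in APP/PS1. No difference between genotypes passed for the other 5 called genes. Cfap54 had 4.49, 4.74 and 5.39 FPKM at 9 months and 4.598, 5.06 and 3.97 FPKM at 6 months in APP/PS1. Gapdh had 9.14, 8.89 and 11.1 FPKM at 9 months and 9.13, 11.6 and 11.5 FPKM at 6 months there. Gm5900 had 0.621, 0.314 and 0.362 FPKM at 9 months and 0.314, 0.744 and 0.765 FPKM at 6 months, and Art3 1.302, 1.49 and 1.72 FPKM at 9 months and 1.800, 1.66 and 1.65 FPKM at 6 months. For Cfap54, Gapdh and Gm5900 the wild-type libraries of 6 months were the group that stood apart from the other 3.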

How the data were processed

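Long RNA libraries of 12 mouse brain samples were used. The authors deposited FPKM values per transcript; the labels' protocols name the TruSeq RNA kit with 1 µg of total RNA, and the submitters' processing notes name Bowtie 0.12.2 and mm8, without a role. The quantifier is not given in the sources used here, nor is the annotation. The FPKM of 48717 transcripts was summed to 22154 gene IDs, of which 98.1% matched a reference name. The 13593 genes averaging 0.5 FPKM or more in the 12 libraries were tested on log2(FPKM + 0.25) with limma 3.58.1 in R 4.3.3, in 1 model with 4 group means and a trended prior, with Benjamini-Hochberg adjustment over all of them. The code was tested on simulated data. Depth in reads is unknown. Read steps in low values gave a relative depth of 0.779 to 1.06 in wild-type libraries, from 8.35% to 11.8% of low genes only.

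Named genes were the called genes that averaged 1 FPKM or more without overlap, then those of smallest p up to 8 per direction, and in each list 2 members of smallest p in the direction of its median. Further members of the lists were named after their values were seen. The members and lists were chosen with earlier results of these data known. Some members of the lists are counted but not reported here by name. Alternatives covered the pseudocount, filter, scaling, prior, libraries, block, transcripts and tissue covariates. Whether replicate numbers pair the libraries is not stated. Same-numbered libraries had correlations of 0.0376, 0.00661 and −0.12 in wild type in their deviations from the group means, and 0.0771, −0.00504 and 0.0599 in APP/PS1. Pairs with unlike numbers ran from −0.139 to 0.149 in wild type and from −0.0733 to 0.015 in APP/PS1. So few pairs cannot exclude pairing. The main model had no block.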

Additional observations from a re-analysis of the deposited data

Results flagged for a closer look

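The effect of age differed in sign between genotypes, without overlap of the ages in either, in 6 of the named genes. Many named genes had been picked for a small p in the wild-type comparison. Separation of the wild-type ages alone was common, at 17.7% of all genes tested. The share of all genes with the opposite order was not counted, so the number 6 has no baseline. In Hdac1 the log2 change, 9 minus 6 months, was 0.621 in APP/PS1 and −0.897 in wild type, a difference of 1.52 (limma Benjamini-Hochberg adjusted p = 0.0174), and its reads can be shared with the pseudogene Gm10093. The difference did not pass in the other 5 genes.

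In Lyz2, the myeloid lysozyme, the difference was 0.933 (limma adjusted p = 0.204), from 0.233 in APP/PS1 and −0.70 in wild type. In Sspn, sarcospan, it was 1.12 (limma adjusted p = 0.204), from 0.206 in APP/PS1 and −0.91 in wild type. In Adora2a, the striatal adenosine receptor, it was 0.656 (limma adjusted p = 0.186), from 0.237 in APP/PS1 and −0.419 in wild type. In Fdft1, squalene synthase, it was 0.325 (limma adjusted p = 0.186), from 0.208 in APP/PS1 and −0.117 in wild type. Atf4, the stress factor, lay the other way, with a difference of −0.608 (limma adjusted p = 0.208), from −0.337 in APP/PS1 and 0.27 in wild type.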

How the results depend on the processing

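Both pseudocounts, quantile and median scaling and array weights called 6 genes for age (3 higher, 3 lower), a prior without trend 8. The other settings gave fewer or other genes: no filter 1 (1 higher, 0 lower), a mean of at least 2 FPKM 4 (3 and 1), the highest transcript per gene 1 (1 and 0), wild-type libraries alone 12 (7 and 5), of which Gm5900 and Pglyrp1 were among the 6. The replicate block called 0 (0 higher, 0 lower), as did the choroid plexus and the striatal covariates, both partly confounded with age in wild type. Leaving out 1 wild-type library gave 0 to 5 calls, 0 to 4 higher and 0 to 3 lower. Chosen after the data were seen were the thalamic covariate (6, with 3 of the 6 genes), the olfactory bulb covariate (4, with 3 higher and 1 lower) and WT 2 as the only library of 6 months. The olfactory bulb covariate is also partly confounded with age in wild type. The difference between genotypes was called in 0 genes with the block, with the choroid plexus or striatal covariate and with the highest transcript, in 2 with array weights or the olfactory bulb covariate, in 3 with WT 2 alone, and in 0 to 4 on leaving out 1 library. The choroid plexus level difference was 1.41, and 0.0144 with WT 2 alone, 1.65 and 0.964 with pseudocounts of 0.1 and 1, and 0.955 to 2.10 on leaving out 1 library. Uncalled log2 differences turned sign for App (−0.0213 by quantile scaling, −0.00887 with the striatal covariate), Dynlrb2 (−0.00178 with the choroid plexus covariate, −0.183 with WT 2 alone), Trh, Oxt and Cd55 (0.193, 0.937 and 0.0551 with the striatal covariate), Hba-a2 (−0.0184 to 0.670 on leaving out 1 library) and Tap1 (0.128 with the highest transcript). With WT 2 alone they turned for Zic2 (−0.00912), S100a8 (−0.489), Igfbp2 (−0.0289) and Mgp (−0.0646). The cause of these shifts was not tested. With 3 libraries a group and unknown read depth, small differences in low genes could not be resolved, and a lone library is assumed to vary like the other groups.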

Other observations

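Genes were also looked up whose libraries of 9 months lay more than 1 log2 unit from all of 6 months in wild type, at a mean of at least 1 FPKM; they were chosen after their values were seen. There were 9, with 4 higher and 5 lower, and of these Pglyrp1 and Gm5900 were called for age. The gap was taken on log2(FPKM + 0.25). How many genes reached that mean was not counted, so the 9 cannot be read as a share. In the fit on wild-type libraries alone Pcdhgb4, Rps3a1, AC245272.1 and 4833420G17Rik were called as well; there the spread does not include that of the APP/PS1 libraries. Pcdhgb4, a gamma protocadherin of the neuronal surface, had 1.39, 2.55 and 1.61 FPKM at 9 months, against 50.5, 49.02 and 52.6 FPKM at 6 months. In APP/PS1 libraries it had 1.71, 2.42 and 6.29 FPKM at 9 months and 55.5, 6.13 and 1.502 FPKM at 6 months, so that 1 APP/PS1 library of 6 months was as high as the wild-type libraries of that age. Other genes of this cluster reached a similar level in single libraries. Pcdhga2 had 51.3 FPKM in WT 1 and 53.2 in APP/PS1 3, both of 9 months, and at most 7.20 elsewhere. Pcdhgb1 had 52.9 FPKM in APP/PS1 3 of 6 months and at most 6.34 elsewhere. Whether reads moved between these genes was not tested. Rps3a1, a ribosomal protein, had 107, 114 and 117 FPKM at 9 months, against 27.4, 24.03 and 26.02 FPKM at 6 months. In APP/PS1 libraries it had 29.7, 124 and 26.7 FPKM at 9 months and 23.2, 30.4 and 27.5 FPKM at 6 months, with 1 high library. The genes of the gamma protocadherin cluster share their last exons, and ribosomal proteins have processed copies, so that reads of both can be divided between transcripts or genes.

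S100a5, a calcium-binding protein of olfactory sensory neurons, was listed at 0 in the 3 wild-type libraries of 9 months, against 3.496, 0.275 and 2.14 FPKM at 6 months, where WT 2 was the lowest library, as it was in the mean of the olfactory bulb genes. In APP/PS1 libraries it had 0.0482, 0 and 0.0879 FPKM at 9 months and 19.96, 3.21 and 0 FPKM at 6 months. S100a5 did not pass for age in wild type (limma BH-adjusted p = 0.481). With WT 2 of 6 months at 0.275 FPKM, the size of its gap depends on the 0.25 FPKM added before taking log2.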
